A study of Mus musculus with 8 samples.

Results

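The RNA of 9 genes that carry interferon signals was compared across 4 mouse fibrosarcoma cell lines. The genes were the 4 receptor chains Ifnar1, Ifnar2, Ifngr1 and Ifngr2, the 3 Janus kinases Jak1, Jak2 and Tyk2, the transcription factor Stat2 and the inhibitor Socs1. They were taken by gene name from a count table of 18768 genes, all 9 were in it, and all 9 passed the filters on low counts. The label IRF8 KO stands on MC010 and MC011, the label WT on MC654 and MC659, and each line gave 2 RNA libraries. The lines came from soft tissue sarcomas induced by methylcholanthrene (MCA), a chemical carcinogen. It was given at 100 µg under the skin of IRF8 KO or WT C57BL/6 mice. The tumors were resected after about 3 months, and their cells were cultured for at least 10 passages. The study does not state whether each line came from a separate tumor or mouse. No other agent is named for any group, and the age of the mice was not given in the sources used here. The comparison addresses which genes differ in tumor cells whose mouse lacked IRF8, a transcription factor of the interferon regulatory factor family. The labels do not say that the libraries of a line came from separate cultures, so p-values between lines measure only the spread between these libraries. P-values between labels also take in the spread between the 2 lines of a label, but treat the libraries as independent. There, 4 libraries stand against 4 but 2 lines against 2.

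The RNA of Irf8 itself went against the labels. It had 442 and 347 counts in MC010, 32 and 10 in MC011, 1 and 2 in MC654, and 1 and 0 in MC659. The study genotyped the lines by PCR and labelled them accordingly. The counts are per gene and do not show from which exons the reads came, so whether they stem from a targeted allele was not tested. The groups are therefore called by their labels throughout. The libraries held between 74063616 and 116206078 counts, and levels are given as CPM, which is the count scaled to a common library size after TMM normalization. All 8 mesenchymal markers were in the table. Their sums lay between 7578 and 9291 CPM in the libraries labelled IRF8 KO and between 6623 and 8051 CPM in those labelled WT. Most of each of these sums was Vim, at 4532 to 7384 CPM. Other mesenchymal markers varied, such as Col1a1 from 81.7 to 486.3 CPM, and Fap was low, at 0.705 to 4.23 CPM. Of 11 hematopoietic markers 5 were in the table. They summed to between 5.73 and 7.97 CPM in the libraries labelled IRF8 KO and between 9.67 and 11.5 CPM in those labelled WT. Most of each of these sums was Cd68. The 4 endothelial markers summed to at most 0.912 CPM. Ptprc, which defines blood cells, had 0 counts in both libraries of MC011. The 4 epithelial markers differed between lines, with sums of 565.2 and 530.8 CPM in MC010, 33.3 and 34.7 CPM in MC011, and between 113.6 and 128.5 CPM in the libraries labelled WT. Nearly all of that in MC010 was Krt8 and Krt18, 2 keratins, and the defining epithelial markers Epcam and Cdh1 had at most 1.19 and 0.394 CPM in any library. MC011 had the least of both, with Krt8 at 1.31 and 1.28 CPM and Krt18 at 30.4 and 32.4 CPM. In the libraries labelled WT, Krt8 was at 19.4 to 39.1 CPM and Krt18 at 77.3 to 108.7 CPM. MC010 and MC011 thus stood apart from the WT lines in these keratins in opposite directions, which is set beside their values below.

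Type I interferons bind a receptor of the chains IFNAR1 and IFNAR2, whose tails hold the kinases TYK2 and JAK1, and interferon gamma binds a receptor of IFNGR1 and IFNGR2, whose tails hold JAK1 and JAK2. The kinases phosphorylate STAT proteins, and STAT2 joins IRF9 in the complex ISGF3, which binds a DNA element called the ISRE. SOCS1 is induced by the pathway and blocks the kinases, and nearly all cell types, fibroblasts among them, carry both receptors.

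In the libraries labelled IRF8 KO, RNA of Jak2 and Socs1 was higher and RNA of Stat2 was lower than in those labelled WT. Jak2 was 2.22-fold higher, Socs1 1.87-fold higher, and Stat2 2.56-fold lower (edgeR's quasi-likelihood test, 4 libraries against 4). These were 3 of 9 genes past both thresholds, an adjusted p under 0.05 and a log2 difference above 0.59 in size, where 22.5% of the 15153 genes tested passed them. In the higher direction 2 of 9 passed, beside 13.7% of all genes, and in the lower direction 1 of 9, beside 8.72%. Ifnar1 and Ifnar2 passed the adjusted p alone, with 1.39-fold and 1.29-fold higher levels, which brought that count to 5 of 9 beside 37.5% of all genes. Ifngr1, Ifngr2, Jak1 and Tyk2 did not pass it. The 4 libraries of one label lay wholly apart from the 4 of the other for 4 of 9 genes, Ifnar1, Ifnar2, Jak2 and Stat2, beside 42.5% of all genes. The median log2 difference was 0.21 over the 9 genes and 0.02 over all genes, and the median size of the difference was 0.37 and 0.36. These shares lie near those of all genes, so they are no result about the 9 genes as a group. The lines are whole cultures, and fewer cells that hold an RNA cannot be told apart from less of it per cell.

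**Figure D1:**
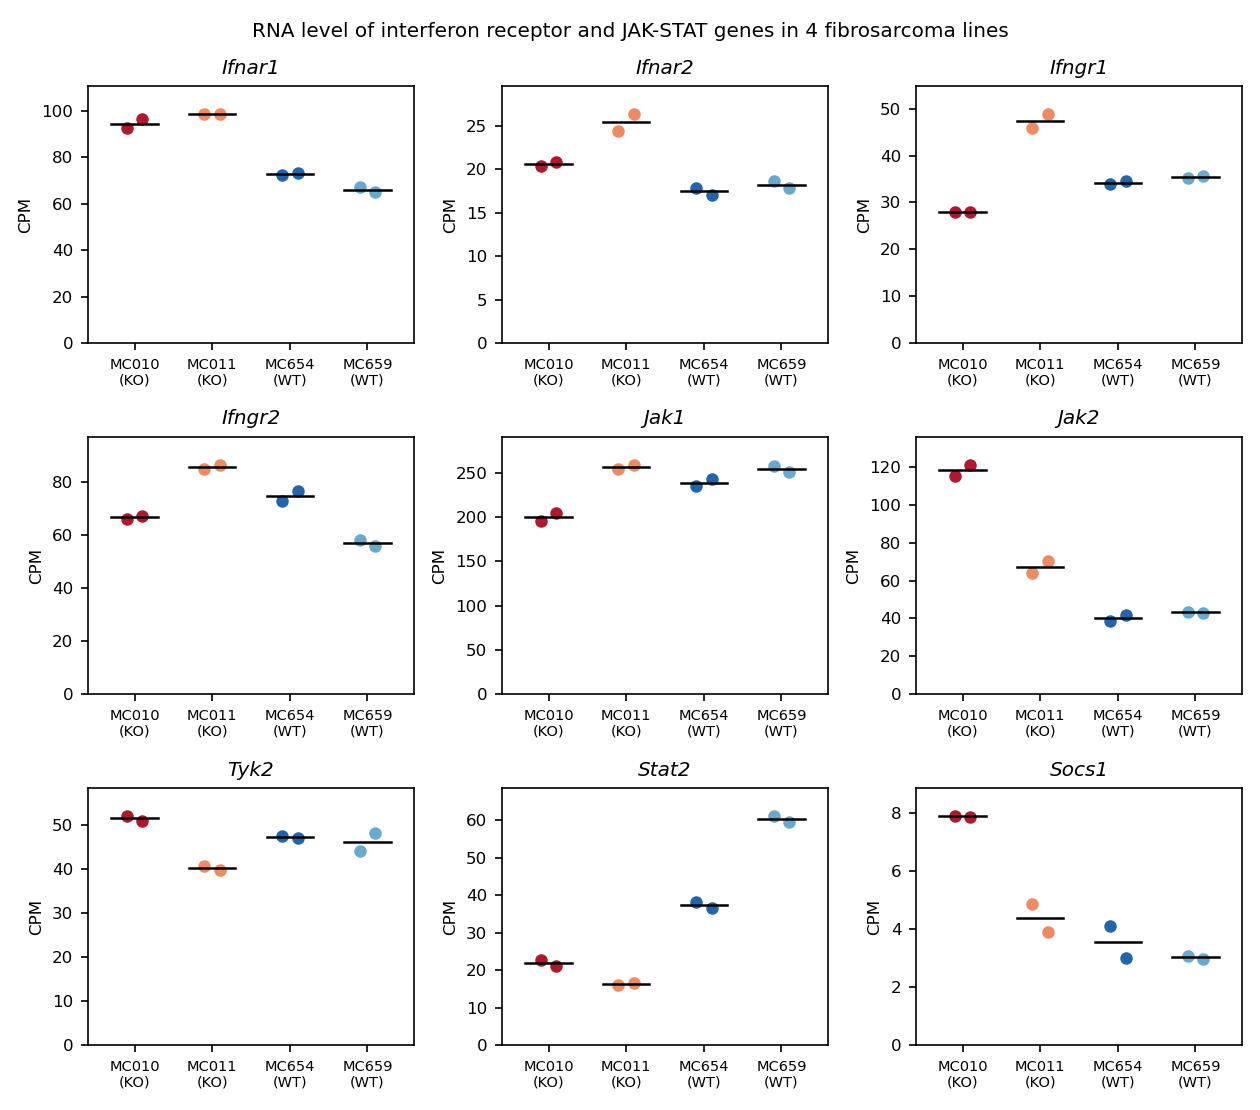
RNA level (CPM, linear axes from 0) of the 9 genes in 8 libraries, by line with its label in brackets. Each point is a library and each bar the mean of the 2 libraries of a line. Jak2 and Socs1 are highest in MC010 at 118.3 and 7.88 CPM, Stat2 is highest in MC659 at 60.3 CPM, and Ifngr1 lies lowest in MC010 and highest in MC011.

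The promoters of the genes that passed are shown because Stat2 and Socs1 hold the letters of an ISRE and Jak2 does not. The sequences are RefSeq's, on GRCm38.p6, and cover 250 bases upstream of the annotated start in the direction of the gene. The Stat2 window is chr10:128270248-128270497 on the + strand, the Socs1 window chr16:10785537-10785786 on the − strand, and the Jak2 window chr19:29251553-29251802 on the + strand. Capitals mark matches, on either strand, to the ISRE core, which was searched as GAAA, any 2 bases and GAAA.
Stat2: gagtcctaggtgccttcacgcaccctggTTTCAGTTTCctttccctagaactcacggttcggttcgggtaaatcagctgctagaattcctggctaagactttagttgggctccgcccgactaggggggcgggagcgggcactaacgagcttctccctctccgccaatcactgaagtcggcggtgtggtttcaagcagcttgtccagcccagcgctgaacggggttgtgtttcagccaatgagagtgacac
Socs1: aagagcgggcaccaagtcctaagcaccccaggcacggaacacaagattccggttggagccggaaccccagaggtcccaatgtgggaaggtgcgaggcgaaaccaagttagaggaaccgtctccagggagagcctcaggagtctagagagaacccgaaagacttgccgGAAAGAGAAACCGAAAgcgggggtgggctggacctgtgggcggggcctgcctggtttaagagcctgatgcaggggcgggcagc
Jak2: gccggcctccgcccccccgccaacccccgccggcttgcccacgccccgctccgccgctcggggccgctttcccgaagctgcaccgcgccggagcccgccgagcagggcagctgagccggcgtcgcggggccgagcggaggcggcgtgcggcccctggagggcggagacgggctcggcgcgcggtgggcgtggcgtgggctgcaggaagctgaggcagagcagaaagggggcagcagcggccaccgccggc
In Stat2 the match reads TTTCAGTTTC, which is the core on the other strand, from 222 to 213 bases upstream of the start. In Socs1 there are 2 matches that overlap, GAAAGAGAAA from 83 to 74 and GAAACCGAAA from 77 to 68 bases upstream. Of the 9 promoters, 2 held this core, beside 2.98% of 32851 RefSeq promoters of the same length. The GAS element, searched as TTC, any 3 bases and GAA, to which STAT dimers bind, was found in 1 of 9, as TTCCTGGAA from 214 to 206 bases upstream of Ifnar2, beside 7.02% of all promoters. The promoters of Ifnar1, Ifngr1, Ifngr2, Jak1, Jak2 and Tyk2 held neither. A match is a description of the letters and not a binding site, and the 2 genes with the ISRE core moved in opposite directions, Stat2 lower and Socs1 higher in the libraries labelled IRF8 KO.

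Ifnar1, the chain that holds TYK2, had CPM values of 92.5 and 96.4 in MC010, 98.9 and 98.8 in MC011, 72.5 and 73.1 in MC654, and 67.1 and 64.9 in MC659. The lowest library labelled IRF8 KO was above the highest of those labelled WT. The means were 96.7 ± 2.99 CPM (SD, n = 4 libraries) and 69.4 ± 4.04 CPM (SD, n = 4), a log2 difference of 0.48 (standard error 0.06, edgeR adjusted p = 0.000522) that is past the adjusted p and short of the threshold on size. The lines labelled IRF8 KO were alike in it. MC010 minus MC011 was −0.06 on the log2 scale, with a 95% interval from −0.16 to 0.04 (edgeR adjusted p = 0.276 with one group per line), and against the mean of the WT lines MC010 was higher by 0.45 and MC011 by 0.51. MC654 and MC659 differed by 0.14 (95% interval 0.04 to 0.25, edgeR adjusted p = 0.0667). With each library and each line left out in turn, the log2 difference of the labels stayed between 0.40 and 0.55 and the edgeR adjusted p at or under 0.0160. In limma-voom with an estimated correlation of the libraries of a line, the adjusted p was 0.0143. With counts summed per line, 2 lines against 2, the log2 difference was 0.48 and did not pass (edgeR adjusted p = 0.139). Ifnar1 (ENSMUSG00000022967) lies on chromosome 16 of mm10, 91485238 to 91507441, on the + strand, and no annotated gene overlaps it.

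Ifnar2, the chain that holds JAK1, had CPM values of 20.4 and 20.8 in MC010, 24.4 and 26.4 in MC011, 17.8 and 17.1 in MC654, and 18.6 and 17.8 in MC659. The labels did not overlap here either, but the distance between them was small. The log2 difference was 0.37 (standard error 0.10, edgeR adjusted p = 0.0217). The order was MC011, MC010, MC659 and MC654, of which only the last 2 did not differ beyond the spread between libraries (log2 difference of MC654 from MC659 −0.06, 95% interval −0.22 to 0.09, edgeR adjusted p = 0.667). MC011 was higher than the mean of the WT lines by 0.51 and MC010 by 0.21 on the log2 scale. Without MC654 or MC659, when 1 line stood for the label WT, the label difference was 0.33 and 0.39, with edgeR adjusted p-values of 0.166 and 0.131. Without MC011 it fell to 0.20, and without MC010 it was 0.49. With 1 library left out, 5 of 8 fits passed the edgeR adjusted p, which reached 0.0668. In limma-voom with an estimated correlation of the libraries of a line, the adjusted p was 0.207. Ifnar2 (ENSMUSG00000022971) lies on chromosome 16, 91372783 to 91405589, + strand, and overlaps Gm21970 on the same strand, whose reads the counting could have split from it.

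Ifngr1, the chain that binds interferon gamma, set the lines labelled IRF8 KO on opposite sides of those labelled WT. Its CPM values were 27.9 and 28.0 in MC010, 45.8 and 49.0 in MC011, 33.9 and 34.6 in MC654, and 35.2 and 35.6 in MC659. Against the mean of the WT lines, MC010 was lower by a log2 difference of −0.32 (edgeR adjusted p = 4.7e-05) and MC011 higher by 0.44 (edgeR adjusted p = 8.72e-07). The difference of MC010 from MC011 was −0.76 (standard error 0.06, edgeR adjusted p = 9.88e-09), past both thresholds, and MC654 and MC659 differed by −0.05 (95% interval −0.17 to 0.08, edgeR adjusted p = 0.686). Averaged by label the levels were 37.7 ± 11.3 CPM (SD, n = 4) and 34.8 ± 0.775 CPM (SD, n = 4), and the log2 difference was 0.11 (standard error 0.20, edgeR adjusted p = 0.688), whose sign turned to −0.32 without MC011. Ifngr1 (ENSMUSG00000020009) lies apart from the other receptor chains, on chromosome 10, 19591949 to 19610229, + strand.

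Ifngr2, the signalling chain of the same receptor, had CPM values of 66.2 and 67.2 in MC010, 84.9 and 86.6 in MC011, 72.7 and 76.7 in MC654, and 58.2 and 55.9 in MC659. It ordered the lines as MC011, MC654, MC010 and MC659, and so did not follow the labels. Every neighbouring pair in that order passed the edgeR adjusted p, with log2 differences of 0.20 for MC011 from MC654 (adjusted p = 0.00365), −0.16 for MC010 from MC654 (0.0104) and 0.23 for MC010 from MC659 (0.00105). The WT lines differed by 0.39 (edgeR adjusted p = 6.33e-05), and among the 9 genes 2 differences of MC654 from MC659 passed the adjusted p, this one and that of Stat2, beside 13% of all genes. The label comparison gave means of 76.2 ± 11.0 CPM (SD, n = 4) and 65.9 ± 10.4 CPM (SD, n = 4), and a log2 difference of 0.21 (standard error 0.14, edgeR adjusted p = 0.274).

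Ifngr2 (ENSMUSG00000022965) lies at 91547072 to 91565169 of chromosome 16, and 3 of the 4 receptor genes lie together there. Ifnar2, Il10rb, Ifnar1 and Ifngr2 follow each other on the + strand of chromosome 16 between 91372783 and 91565623, the end of Ifngr2 in GENCODE, a span of 192.841 kb with 12 annotated genes, 5 of them protein coding and 7 in the table. Il10rb, which encodes a chain of the receptors for interleukin 10 and interferon lambda, lies between Ifnar2 and Ifnar1 at 91406164 to 91425834. It had mean levels of 8.62 CPM in MC010, 15.0 CPM in MC011, 8.91 CPM in MC654 and 9.90 CPM in MC659, and did not pass the label comparison (log2 difference 0.33, edgeR adjusted p = 0.278). MC011 held the highest line mean of all 4 neighbours, and none of them passed both thresholds in the label comparison. The non-coding neighbours A930006K02Rik (log2 difference 0.71, edgeR adjusted p = 0.372) and Gm7860 (−0.79, edgeR adjusted p = 0.203) did not pass it either.

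Jak1, the kinase that both interferon receptors share, had CPM values of 195.4 and 205.0 in MC010, 254.4 and 259.6 in MC011, 235.0 and 243.6 in MC654, and 257.9 and 251.5 in MC659. MC010 lay below the other 3 lines, which were close together. Its log2 difference was −0.30 from the mean of the WT lines (edgeR adjusted p = 3.35e-06) and −0.36 from MC011 (edgeR adjusted p = 3.06e-06), while MC011 differed from the WT lines by 0.06, with a 95% interval from −0.03 to 0.14 (edgeR adjusted p = 0.229). By label the log2 difference was −0.11 (standard error 0.10, edgeR adjusted p = 0.429), and it turned to 0.04 without MC010. Jak1 (ENSMUSG00000028530) lies on the − strand of chromosome 4, 101152367 to 101265282, and overlaps Gm12785 on the same strand and Raver2 and Gm24468 on the other.

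Jak2, the kinase of the interferon gamma receptor and of many cytokine receptors, had CPM values of 115.1 and 121.4 in MC010, 64.0 and 70.1 in MC011, 38.6 and 42.0 in MC654, and 43.3 and 43.0 in MC659. All libraries labelled IRF8 KO were above all those labelled WT, and those of MC010 were above those of MC011. The means were 92.7 ± 29.8 CPM (SD, n = 4) and 41.7 ± 2.13 CPM (SD, n = 4), a log2 difference of 1.15 (standard error 0.21, edgeR adjusted p = 0.00409). MC010 exceeded the mean of the WT lines by 1.50 and MC011 by 0.68 on the log2 scale, and the difference between them was 0.82 (standard error 0.06, edgeR adjusted p = 3.32e-09). The WT lines differed by −0.10 (95% interval −0.23 to 0.03, edgeR adjusted p = 0.366). The call held in 8 of 8 fits with 1 library left out and in 2 of 4 with 1 line left out. Without MC654 the edgeR adjusted p was 0.0696 and without MC659 0.0597, when 1 line stood for the label WT, and without MC010 the log2 difference fell to 0.67. MC010, highest in Jak2, was also highest in the keratins, while MC011 had less keratin RNA than the WT lines and more Jak2, and the part of the keratin difference in the result was not tested. Jak2 (ENSMUSG00000024789) lies on chromosome 19, 29251828 to 29313080, + strand.

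Tyk2, the kinase bound to IFNAR1, had CPM values of 52.2 and 50.9 in MC010, 40.7 and 39.8 in MC011, 47.5 and 47.1 in MC654, and 44.0 and 48.2 in MC659. The WT lines lay between the lines labelled IRF8 KO. MC010 was higher than their mean by a log2 difference of 0.14 (edgeR adjusted p = 0.0191), MC011 lower by −0.22 (edgeR adjusted p = 0.00149), and MC010 minus MC011 was 0.36 (edgeR adjusted p = 5.08e-05). By label the log2 difference was −0.03 (standard error 0.10, edgeR adjusted p = 0.868). Tyk2 (ENSMUSG00000032175) lies on the − strand of chromosome 9, 21104068 to 21131243, and overlaps 1700084C06Rik on the other strand. Because MC010 was lower than MC011 in Ifngr1, Ifngr2, Ifnar2 and Jak1 and higher in Jak2, Tyk2, Stat2 and Socs1, the lines labelled IRF8 KO differed past the adjusted p in 8 of 9 genes, beside 61.0% of the 16703 genes tested between lines. Past both thresholds were 3 of 9, Ifngr1, Jak2 and Socs1, beside 32.6%.

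**Figure D2:**
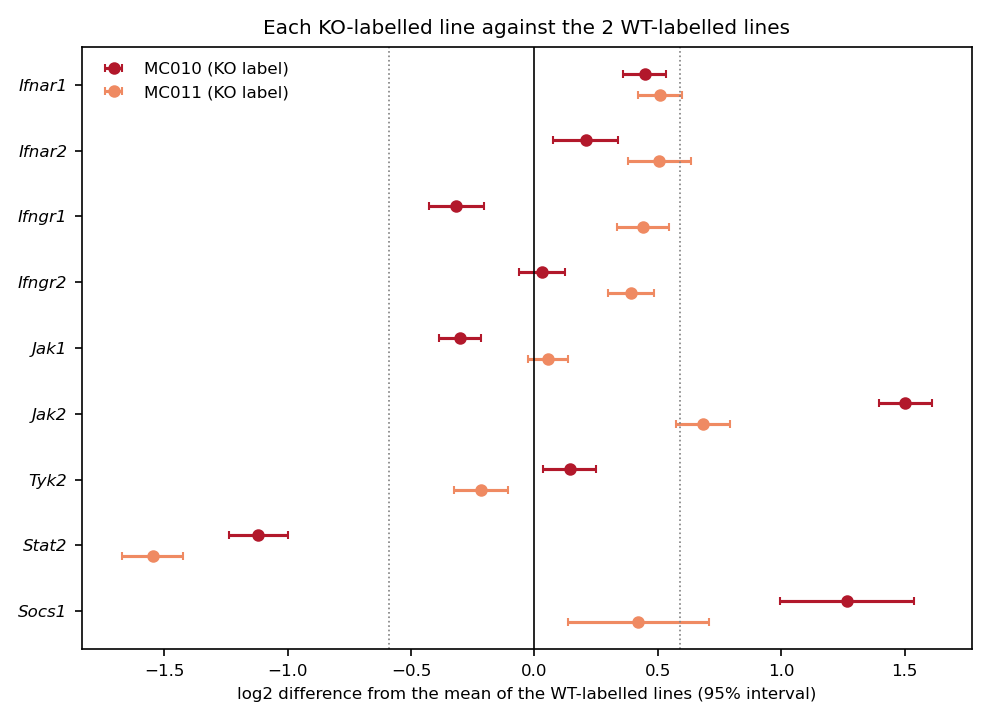
Log2 difference of each line labelled IRF8 KO from the mean of the lines labelled WT for the 9 genes, from the fit with one group per line. Points are estimates, bars are 95% intervals over libraries, and dotted lines mark 0.59 in size. Ifngr1, Tyk2 and Jak1 fall on opposite sides of 0 in MC010 and MC011, and for Jak1 the interval of MC011 includes 0. Stat2 is the only gene below −0.59, in both lines.

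Stat2, the STAT protein of ISGF3, had CPM values of 22.6 and 21.0 in MC010, 16.1 and 16.5 in MC011, 38.2 and 36.7 in MC654, and 61.2 and 59.4 in MC659. It was lower in all libraries labelled IRF8 KO, and each line had a level of its own. The means were 19.1 ± 3.26 CPM (SD, n = 4) and 48.9 ± 13.2 CPM (SD, n = 4), a log2 difference of −1.36 (standard error 0.21, edgeR adjusted p = 0.00178). All 6 pairs of lines differed past the edgeR adjusted p and 5 of 6 past both thresholds, from −0.69 for MC654 against MC659 (edgeR adjusted p = 8.2e-07) to −1.89 for MC011 against MC659. The exception was MC010 against MC011, at 0.43 (edgeR adjusted p = 2.41e-05). From lowest to highest line the level spanned 3.70-fold, the widest among the 9 genes. The call held in 8 of 8 fits with 1 library left out and in 4 of 4 with 1 line left out, with a log2 difference of −0.98 without MC659. Of the 5 hematopoietic markers in the table, Csf1r and Cd68 were also lower in the libraries labelled IRF8 KO. Their log2 differences were −1.93 (edgeR adjusted p = 0.002) and −0.58 (edgeR adjusted p = 0.00838). Cd79a was higher there, at no more than 0.190 CPM, and Ptprc and Laptm5 were highest in MC010. The part of these markers in the Stat2 result was not tested. Stat2 (ENSMUSG00000040033) lies on chromosome 10, 128270559 to 128292849, + strand, and the RefSeq start behind the promoter printed above is upstream of that first base.

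Stat2 was also the only one of the 9 genes whose WT lines differed past both thresholds, where 4.58% of all genes did. Between a line labelled IRF8 KO and a line labelled WT, 3 of 9 genes passed for MC010 against MC654 (35.8% of all genes) and against MC659 (36.7%), and 2 of 9 for MC011 against MC654 (29.9%) and against MC659 (30.5%). Against the mean of the WT lines, 3 of 9 passed for MC010 (37.1% of all genes) and 2 of 9, Jak2 and Stat2, for MC011 (31.3%). Over all 6 pairs of lines, 14 of 54 differences passed both thresholds, beside 28.3% over all genes, and 42 of 54 passed the adjusted p alone, beside 53.2%. The 14 were 5 of Jak2, 5 of Stat2, 3 of Socs1 and 1 of Ifngr1, so that 5 of the 9 genes, Ifnar1, Ifnar2, Ifngr2, Jak1 and Tyk2, had none. Some of their differences were just short of 0.59, with MC011 from MC659 at 0.580 for Ifnar1 and 0.585 for Ifngr2. The share of all genes with none in any pair is not given here, so this is no result about those 5 genes.

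Socs1, the inhibitor of the kinases, had the lowest counts of the 9 genes. It had CPM values of 7.90 and 7.85 in MC010, 4.86 and 3.90 in MC011, 4.11 and 2.99 in MC654, and 3.06 and 2.98 in MC659. Both libraries of MC010 stood above all others, and library 2 of MC011, at 3.90 CPM, was below library 1 of MC654, at 4.11 CPM, so the labels overlapped. The means were 6.13 ± 2.06 CPM (SD, n = 4) and 3.28 ± 0.552 CPM (SD, n = 4), a log2 difference of 0.90 (standard error 0.26, edgeR adjusted p = 0.0291). MC010 exceeded the mean of the WT lines by 1.27 (edgeR adjusted p = 1.46e-07) and MC011 by 0.42 (edgeR adjusted p = 0.0124), and they differed by 0.85 (edgeR adjusted p = 0.000121). MC011 against MC654 was 0.30, with a 95% interval from −0.03 to 0.64 (edgeR adjusted p = 0.111). Within a line the libraries of Socs1 differed by up to 1.38-fold, against at most 1.10-fold for the other 8 genes, and its smallest count was 254. The call was lost in 5 of 8 fits with 1 library left out, with edgeR adjusted p-values between 0.0710 and 0.0805 without either library of MC010, library 2 of MC654 or either library of MC659. It was also lost without MC010 (log2 difference 0.40, edgeR adjusted p = 0.0882), MC654 (0.116) and MC659 (0.220). The part of keratin RNA, highest in MC010 and lowest in MC011, in the Socs1 levels was not tested. Socs1 (ENSMUSG00000038037) lies on the − strand of chromosome 16, 10782240 to 10785536, apart from the receptor genes on that chromosome.

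**Figure D3:**
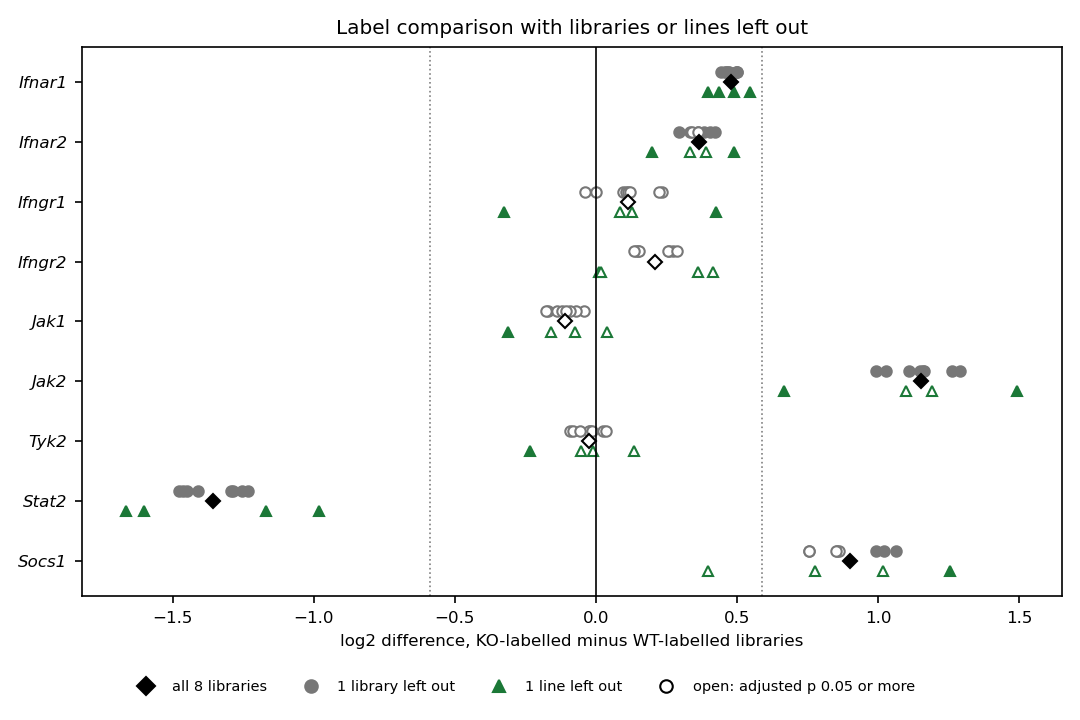
Log2 difference of libraries labelled IRF8 KO minus libraries labelled WT for the 9 genes, with all libraries (diamonds), without each library (circles) and without each line (triangles). Open symbols have an edgeR adjusted p of 0.05 or more and dotted lines mark 0.59 in size. Stat2 stays filled and below −0.59 in every fit, Jak2 has 2 open triangles, and Socs1 has 5 open circles and 3 open triangles.

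Levels of different genes were compared per length, as CPM per kb of annotated exon. Jak1 had the highest level of the 9 genes in every line, from 27.7 CPM per kb in MC010 to 35.6 CPM per kb in MC011, and Socs1 the lowest, from 1.04 in MC659 to 2.71 in MC010. Jak2 lay between Jak1 and Tyk2 in every line. In MC654 and MC659 it was close to Tyk2, at 8.02 and 8.58 against 6.89 and 6.72 CPM per kb, and in MC010, at 23.5 CPM per kb, it was close to Jak1. Among receptor chains, Ifnar2 was the lowest in every line, at 5.24 to 7.63 CPM per kb, and Ifnar1 was at 11.1 to 16.6. Ifnar2 overlaps Gm21970 on the same strand, and whether reads lost in the overlap lowered its level was not tested. In the WT lines Stat2 had 6.31 and 10.2 CPM per kb, above Ifnar2, and in the lines labelled IRF8 KO it had 3.68 and 2.75, below it.

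**Figure D4:**
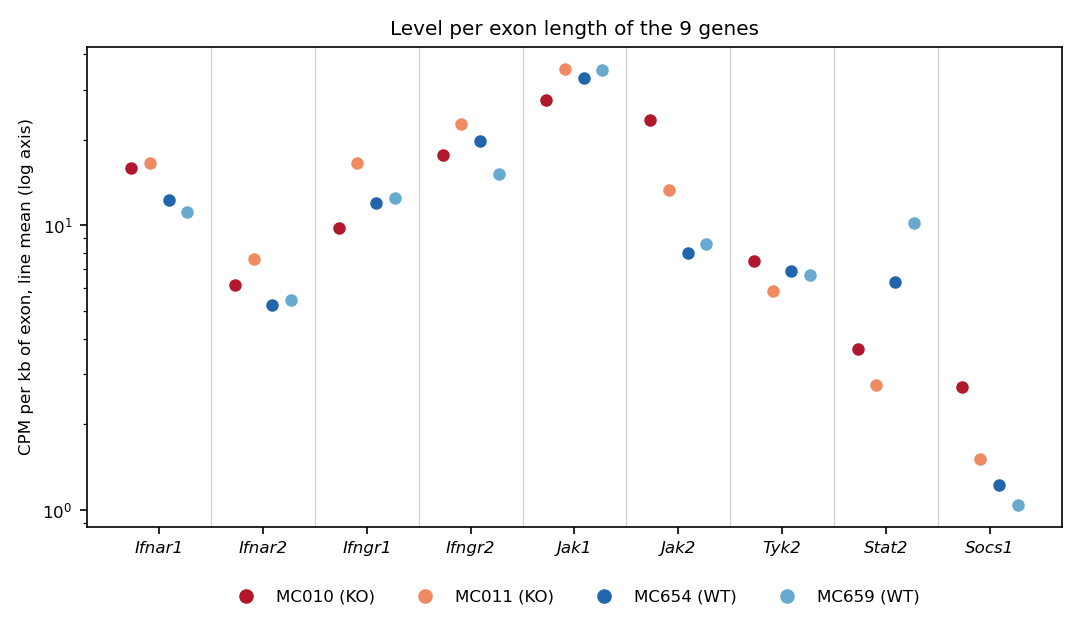
Mean level per line of the 9 genes as CPM per kb of exon, on a log axis, with each point the mean of 2 libraries. Jak1 is highest in all 4 lines and Socs1 lowest. Stat2 lies above Ifnar2 in both lines labelled WT and below it in both lines labelled IRF8 KO, and Jak2 is second to Jak1 in MC010 and not in the other lines.

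Other genes of the pathway were followed as a list of 27, of which 26 were in the table and 25 were tested. Of the 25, 6 rose and 4 fell past both thresholds in the libraries labelled IRF8 KO, beside 13.7% and 8.72% of all genes. By the adjusted p alone 15 of 25 passed, 8 higher and 7 lower, beside 37.5% of all genes. The other 10 did not pass it, and the median log2 difference of the 25 was 0.23, beside 0.02 over all genes. The list was chosen with earlier results of these data known, so its counts are no independent evidence. The 6 that rose past both thresholds were Socs2, Socs3, Socs6, Cish, Jak3 and Stat5a. Jak3, the kinase of the common gamma chain receptors of lymphocytes, had means of 4.56 CPM in MC010 and 6.57 CPM in MC011 against 1.95 and 1.98 CPM in MC654 and MC659 (log2 difference 1.50, edgeR adjusted p = 0.00158). Stat5a, a STAT of prolactin and interleukin receptors, had a log2 difference of 0.77 (edgeR adjusted p = 0.0124). The calls of both were lost in limma-voom with an estimated correlation of the libraries of a line (adjusted p = 0.0631 for Jak3 and 0.069 for Stat5a), and that of Stat5a also without MC654 (edgeR adjusted p = 0.0892). The genes that fell included Irf9, Irf1 and Usp18. Irf9, the partner of STAT2 in ISGF3, had 13.6 CPM in MC010, 20.4 CPM in MC011, 37.5 CPM in MC654 and 50.2 CPM in MC659 (line means, log2 difference −1.37, edgeR adjusted p = 0.00102). Stat2 and Irf9 thus had their highest level in MC659 and differed in the order of MC010 and MC011. Irf1, a transcription factor induced by interferon gamma, had a log2 difference of −0.74 (edgeR adjusted p = 0.000568), which was −0.59 and just short of the size threshold without MC659, and Usp18, which blocks JAK1 at IFNAR2, one of −5.05 (edgeR adjusted p = 0.0013). Among the hematopoietic markers, Csf1r and Cd68 were lower in the same libraries and Cd79a was higher, and their part was not tested.

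The SOCS family has 8 genes for inhibitors of cytokine receptors. Of the 8, 5 rose past both thresholds, Socs1, Socs2, Socs3, Socs6 and Cish, beside 13.7% of all genes, and 0 fell past both, beside 8.72%. The median log2 difference of the 8 was 0.97. The list overlaps the pathway list, and Socs1 is 1 of the 9 genes. These lists were chosen with earlier results of these data known, so the SOCS count is no independent evidence. Socs2, an inhibitor of growth hormone signals, rose most, with 5.71 CPM in MC010, 17.9 CPM in MC011, 0.546 CPM in MC654 and 0.991 CPM in MC659 (log2 difference 3.94, edgeR adjusted p = 0.000978). Socs3, which blocks interleukin 6 receptors, had 42.8 and 51.0 CPM in the lines labelled IRF8 KO and 19.3 and 22.1 CPM in those labelled WT (1.18, edgeR adjusted p = 9.66e-05). Those 2 were higher in MC011, where Socs1 and Cish were higher in MC010. Cish, an inhibitor of STAT5 signals, had 10.2, 7.18, 3.57 and 3.92 CPM in MC010, MC011, MC654 and MC659 (1.22, edgeR adjusted p = 0.00138), and Socs6 had 180.2, 168.7, 92.8 and 77.2 CPM (1.04, edgeR adjusted p = 9.03e-05). The calls of Socs2, Socs3, Socs6 and Cish held with each library and each line left out, unlike that of Socs1. Socs4 passed the adjusted p alone in the lower direction (−0.23, edgeR adjusted p = 0.0237), and Socs5 (−0.03, 0.904) and Socs7 (−0.12, 0.212) did not pass it.

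**Figure D5:**
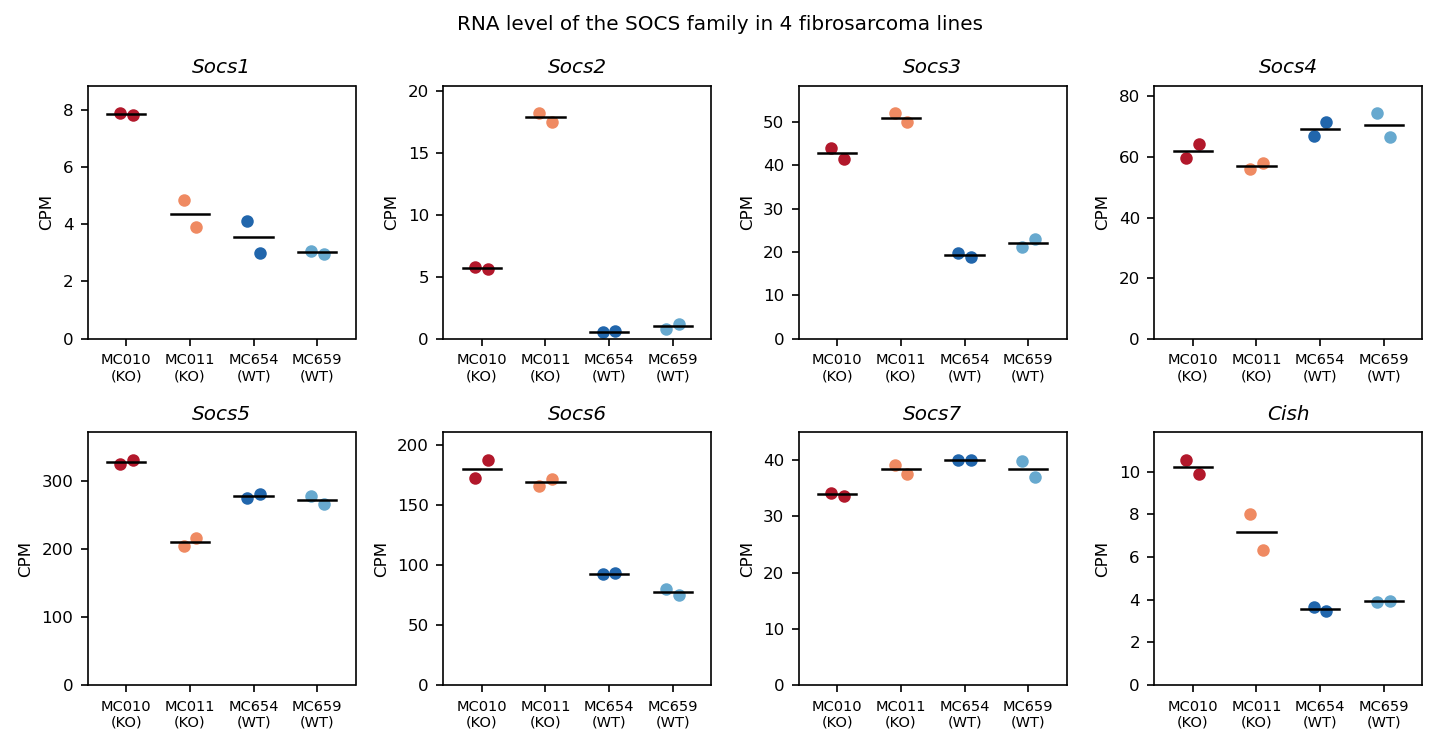
RNA level (CPM, linear axes from 0) of the 8 SOCS family genes in 8 libraries, by line with its label in brackets. Points are libraries and bars are means of the 2 libraries of a line. Socs2, Socs3, Socs6 and Cish lie higher in both lines labelled IRF8 KO than in either line labelled WT, and Socs2 reaches 17.9 CPM in MC011.

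Among the phosphatases, Ptpn6, which encodes SHP-1 and is known best from blood cells, was high in 1 line. Its mean was 35.7 CPM in MC010 and 1.23, 1.74 and 1.91 CPM in MC011, MC654 and MC659. The log2 difference of MC010 from MC011 was 4.87 (edgeR adjusted p = 1.92e-13), and by label it was 3.34 (edgeR adjusted p = 0.0505), which turned to −0.59 without MC010. The keratins were also highest in MC010, and their part in this value was not tested. Of the 5 hematopoietic markers in the table, Ptprc and Laptm5 were highest in MC010, at no more than 0.177 and 0.595 CPM. Cd79a, at 0.0874 and 0.177 CPM in MC010, was above every library labelled WT, and Cd68 and Csf1r were below. The summed level of the list in MC010, 7.97 and 6.95 CPM, was mostly Cd68, at 6.74 and 5.97 CPM. The part of these markers in the Ptpn6 value was not tested. Stat3, with 61.5, 129.6, 86.4 and 93.7 CPM in MC010, MC011, MC654 and MC659, set the lines labelled IRF8 KO on opposite sides of WT as Ifngr1 did, and by label its log2 difference was 0.09 (edgeR adjusted p = 0.831).

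Of 21 interferon genes listed as ligands, 1 was in the table, Ifnz, with at most 8 counts in any library, and 0 passed the filter, so no ligand was compared. As a readout of the pathway, 8 genes that interferons induce were taken, and all 8 fell past both thresholds in the libraries labelled IRF8 KO, beside 8.72% of all genes, with a median log2 difference of −3.83. Of the hematopoietic markers, Csf1r and Cd68 were lower in the same libraries and Cd79a was higher, and the part of these markers was not tested. Ifit1, an RNA-binding antiviral protein, had a log2 difference of −3.78 (edgeR adjusted p = 0.0019), and Gbp2, a GTPase induced by interferon gamma, the smallest of the 8, −0.79 (edgeR adjusted p = 0.0445), whose call was lost in 5 of 8 fits with 1 library left out. The list was chosen with the decrease of such genes in these libraries already known, so its count is no independent evidence. The log2 differences of Stat2 and Irf9, −1.36 and −1.37, were closer to 0 than those of 7 of the 8 genes, and the receptors and kinases did not fall past both thresholds by label in any case.

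Genes with a profile most like those of Jak2, Stat2 and Socs1 were found among 10689 genes by the root-mean-square difference of log2 CPM over the 8 libraries, each profile centred on its mean. These 3 were the genes of the 9 whose line means spanned at least 1 on the log2 scale. Closest to Jak2 were Gclm (0.0582), Nid1 (0.0804) and Rab7b (0.0860), and Gclm had 163.7, 100.2, 61.6 and 63.4 CPM in MC010, MC011, MC654 and MC659. Closest to Stat2 were Ifi35 (0.135), Gulp1 (0.145) and Fah (0.152), of which Ifi35, a gene induced by interferons, had 10.1, 7.61, 20.6 and 26.4 CPM. Closest to Socs1 were Plppr3 (0.122), Limk1 (0.130) and Orai1 (0.135). The likeness is over 8 libraries of 4 lines that these genes share, and it is given as a description.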

How the data were processed

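RNA sequencing was done on 8 libraries of 4 mouse tumor cell lines, 2 libraries per line. Per the labels, stranded mRNA libraries were made, and the submitters' processing notes name STAR 2.7.3a, HTSeq 0.11.2, DESeq2 and the mouse genome mm10 (GRCm38.p6). Whether strand was used in counting is not given in the sources used here. The authors deposited a raw count per gene and library, and these counts were analysed. The authors also deposited a signal per library, made by dividing counts by size factors, and their DESeq2 comparison of the labels. Of the latter, the authors deposited a mean signal, the log2 change and its standard error, the Wald score, and the raw and adjusted p-value, none of which was used. No gene in the table had fewer than 20 counts in all, and genes on chromosome X or Y are not part of what was analysed.

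Tests were run in edgeR 4.0.16 (R 4.3.3), with TMM normalization, filterByExpr and the robust quasi-likelihood test. One fit compared 4 libraries of each label over 15153 genes. A second had one group per line and compared 6 pairs of lines, and each line labelled IRF8 KO with the mean of the WT lines, over 16703 genes. Benjamini-Hochberg adjustment was over all genes of a comparison. Genes were called at an adjusted p under 0.05 and a log2 difference above 0.59 in size. With these depths, 3 counts, taken as the floor of a library, are 0.0262 to 0.0408 CPM, and floors cover counting error only. Coordinates are those of the deposited table, exon lengths those of the GENCODE annotation of the same build, and promoters RefSeq's, matched for 9 of 9 genes.

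The genes named were the 9 members, the pathway, ligand and readout lists, the neighbours of the receptor genes, and the 3 genes closest in profile to each member whose line means spanned at least 1 on the log2 scale. The members and lists were chosen with earlier results of these data known. An item of the pathway list is left out of the text and is part of the counts alone. Ptprc and the other marker genes come from lists of 8 mesenchymal, 11 hematopoietic, 4 endothelial and 4 epithelial genes, of which 6 hematopoietic genes were not analysed here. Alternatives were DESeq2 1.42.0, upper-quartile normalization, no filter, sums per line, limma-voom (limma 3.58.1) with lines as random blocks, library numbers as a block, each library and each line left out, adjustment over all pairs together, and the adjusted p alone. The fits were tested on simulated counts. The library numbers did not pair the libraries, since their deviations from line means had correlations of −0.03 to 0.06.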

Additional observations from a re-analysis of the deposited data

Results flagged for a closer look

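Among the 9 genes, 3 differed between MC010 and MC011, each taken against the same WT lines, past both thresholds in the fit with one group per line. The log2 difference of MC010 from MC011 was −0.76 for Ifngr1, 0.82 for Jak2 and 0.85 for Socs1 (edgeR adjusted p = 9.88e-09, 3.32e-09 and 0.000121). For Ifngr1 the difference set the lines on opposite sides of WT, and for Jak2 and Socs1 both lines lay above WT by different amounts. Socs1 in library 1 of MC654, at 4.11 CPM, stood far from the other libraries labelled WT, which lay between 2.98 and 3.06 CPM. It was 1 of 18 groups of 4 libraries examined in this way, and chance gives about 1 in 20. Without that library the label difference of Socs1 was 1.02 (edgeR adjusted p = 0.0374).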

How the results depend on the processing

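DESeq2, upper-quartile normalization and no filter on low counts kept 3 of the 9 genes past both thresholds, and 3839, 3409 and 3784 of all genes, against 3404. Sums per line, 2 lines against 2, left 0 of the 9 genes (3 at an unadjusted p under 0.05), 0 of the other pathway genes (9) and 0 of all genes (3658) in edgeR. limma-voom with lines as random blocks left Jak2 (adjusted p = 0.0143) and Stat2 (0.0056), not Socs1 (0.177), and 1886 of all genes. Without MC654 or MC659 1 of the 9 genes was left, Stat2, with 2079 and 1884 of all genes, and without MC011 all genes came to 5827. By the adjusted p alone the counts were 5 of the 9 genes, 5675 of all genes, 42 of 54 pair differences and 53289 of 100218, against 28405. With each library left out, 2 to 3 of the 9 genes, 10 to 12 other pathway genes, 2908 to 3623 of all genes, 14 to 16 pair differences of the 9 genes and 27195 to 28413 of all genes passed. The library number as a replicate block gave 3106 of all genes, 3 of the 9, 10 pathway genes, 14 pair differences and 28212 over all genes, and changed no call of the 9 genes.

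The sign turned for differences that did not pass both thresholds with all libraries, and the cause was not tested. Without MC011, Ifngr1 became −0.32, Tyk2 0.13, Stat3 −0.56, Il10rb −0.13 and Socs5 0.25. Without MC010, Jak1 became 0.039 and Ptpn6 −0.59. With each library left out, Ifngr1 ranged from −0.039 to 0.23, Tyk2 from −0.092 to 0.037, Stat3 from −0.10 to 0.25 and Socs5 from −0.15 to 0.077, and the turned signs came without a library of MC011. Stat3 was −0.014 under limma-voom. Between lines, Jak1 of MC011 against MC659 became −0.024 with upper-quartile normalization and −0.010 without library 2 of either line (range 0.027 to −0.010 over the libraries left out), Tyk2 of MC654 against MC659 −0.030 without library 1 of MC659 (up to 0.10), and Socs1 −0.018 without library 1 of MC654 (up to 0.44). Socs1 had the lowest counts of the 9 genes, with 254 to 904 per library, and the part of depth in its spread was not tested.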
